A study of Homo sapiens with 8 samples.

Results

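The genes described here encode splicing factors, and their transcript levels were compared between Aldrin-exposed and Non-exposed DU145 cells. Members were the genes whose symbol begins with SRSF, HNRNP, SF3A, SF3B, U2AF, PRPF, SNRP or RBM, together with SF1. RBM had to be followed by a digit, which left out RBMX. Each member also had to have a probe set naming that gene alone. This gave 107 genes out of 18132 genes with such a probe set, and 349 probe sets out of 49293. The members were 12 SR proteins, 22 hnRNP proteins, 12 proteins of branch point and 3′ splice site recognition, 12 Sm and other snRNP proteins, 11 PRPF proteins and 38 RBM proteins. The rule used gene names and no measured value. Of 114 protein-coding genes in the RefSeq annotation that fit the names, 106 had a single-gene probe set, and the remaining member, SNRPD2P2, is a pseudogene. Another 22 probe sets have several gene entries with a matching gene among them, such as those of U2AF1, HNRNPH2 and SNRPN, and were kept out of the member list. For RBM28 such a probe set lists the same name again and no other gene.

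DU145 is a human prostate cancer cell line. The exposed cells received 1 µM Aldrin, an organochlorine insecticide regarded as an endocrine disruptor, in DMSO for 50 days with a new dose at each passage. The Non-exposed cells were the same line without Aldrin, and the sources used here do not say whether they received DMSO. Total RNA of 4 samples per condition was hybridised to 1-colour Affymetrix arrays, and each value is a log2 intensity after RMA. The sources do not tie the 4 replicates of a condition to separate cultures. The tests below therefore rest on the spread between arrays, which may be technical. The number of arrays, 4 against 4, limits the precision of every value below, and in bulk RNA fewer cells of a type and less RNA per cell cannot be told apart.

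Splicing removes introns from the primary transcript in the spliceosome, a machine of small nuclear RNAs and proteins that is assembled anew on each intron. The Sm proteins form a ring on the small nuclear RNAs, SF1 and the U2AF proteins recognise the branch point and the 3′ splice site, and the SF3A and SF3B proteins then hold the U2 particle on the branch point. PRPF proteins belong mostly to the later particles and to the rearrangements that activate the complex. SR proteins generally favour the use of an exon to which they bind, while hnRNP proteins often oppose it, so the balance of both families sets many alternative splicing choices. RBM proteins share an RNA recognition motif and have roles within splicing and outside it.

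The arrays were checked once before the comparison. The median correlation of an array with the other 7 lay between 0.991 and 0.996, and no pair of arrays within a condition held the same values, with mean absolute differences of 0.151 to 0.299 on the log2 scale. Of the epithelial markers of this line, 8 of 9 listed genes were measured, and the keratin KRT18 averaged 12.40 ± 0.13 in Aldrin-exposed cells, against 12.53 ± 0.09 in Non-exposed cells (log2, SD, n = 4 each). All 8 had a lower mean in Aldrin-exposed cells, with a median log2 fold change of -0.14. For the adhesion protein CDH1 that change was -0.46, at an unadjusted limma p of 0.039. Their part in the results on splicing factors was not tested. Of the androgen axis, 4 of 6 listed genes were measured, and the prostate marker KLK3 lay between 5.54 and 5.64 on the Aldrin-exposed arrays and between 5.41 and 5.66 on the Non-exposed arrays. In Aldrin-exposed and Non-exposed cells, TMPRSS2 averaged 6.30 and 6.20, KLK2 6.25 and 6.32, and STEAP2 9.68 and 9.57. The list was thus not uniformly low. Lists of fibroblast, endothelial and leukocyte markers held 0 genes at an unadjusted limma p under 0.05.

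The main comparison asked whether long exposure to Aldrin went along with a different level of any splicing factor transcript. It did not for any member at the adjusted threshold. Of the 107 genes, 0 passed an adjusted p of 0.05 in limma, with Benjamini-Hochberg adjustment over all probe sets, and the smallest adjusted p among them was 1.00. A test with unequal variances also called 0 members. Over all 49293 probe sets, limma called 0.00203%, which is 1 probe set and no member's. At an unadjusted limma p under 0.05 there were 2 members, RBM7 higher and RBM14-RBM4 lower in Aldrin-exposed cells. Across all genes 2.76% passed that threshold, 1.17% higher and 1.59% lower, so the members' count was near what the array as a whole showed. The 2 conditions did not overlap for 1 member, RBM14-RBM4, against 1.75% of all genes (0.535% higher and 1.22% lower).

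Differences of the mean were small in both directions. Of the members, 42 had a higher mean in Aldrin-exposed cells and 65 a lower one, which is 39.3% higher against 45.8% of all genes. The median log2 fold change was -0.034 over the members and -0.011 over all genes. The median size of the change, without its sign, was 0.071 for the members and 0.070 for all genes. The median standard deviation between replicates was 0.160 for the members and 0.157 for all genes, so the typical change was smaller than the replicate spread. The changes ran from -0.47 for RBM14-RBM4 to 0.46 for RBM7.

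The width of the intervals says which changes these arrays could still hide. The 95% interval of the fold change lay within a log2 value of 0.5 on either side of 0, or 1.41-fold, for 91 of the 107 members (85.0%, against 82.8% of all genes). For 104 members it lay within 1, or 2-fold. The exceptions were PRPF39, RBM24 and RBM43, whose intervals reached 1.33, 1.06 and 1.03. All 12 genes of branch point and 3′ splice site recognition lay within 0.5, while among the PRPF genes 7 of 11 did.

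**Figure D1:**
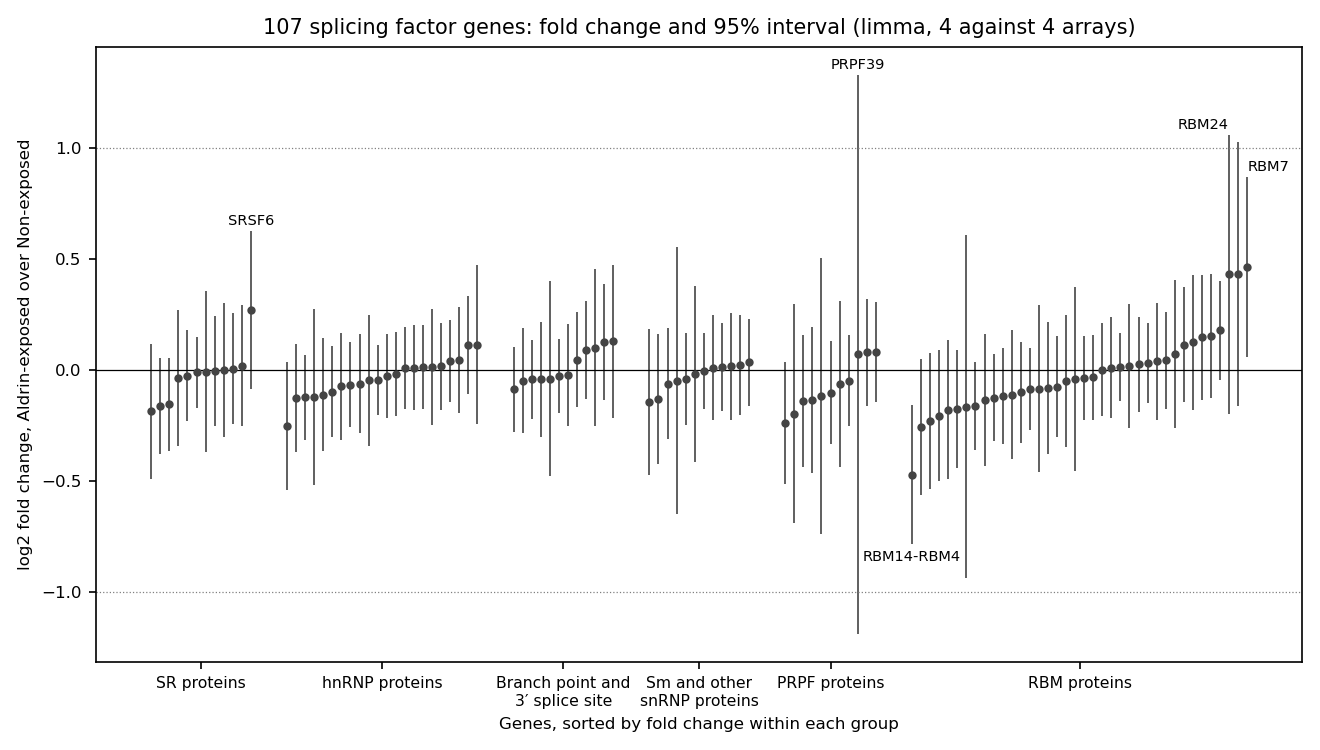
Log2 fold change of each of the 107 splicing factor genes, Aldrin-exposed over Non-exposed, with its 95% limma interval (4 arrays each), sorted within each family from left to right; dotted lines mark a 2-fold change. The intervals of RBM14-RBM4 and RBM7 leave out 0, and those of PRPF39, RBM24 and RBM43 reach beyond 1.

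Among the SR proteins, 3 genes had a higher and 9 a lower mean in Aldrin-exposed cells, with a median log2 fold change of -0.01. None of the 12 had an unadjusted limma p under 0.05, and SRSF3, SRSF7, SRSF8 and SRSF9 all had changes of 0.01 or less in size. SRSF6, which binds exonic enhancers, was the farthest on the higher side. Its log2 values were 12.01, 11.97, 12.43 and 11.94 on the Aldrin-exposed arrays and 11.58, 11.90, 11.62 and 12.17 on the Non-exposed arrays. Aldrin-exposed replicate 3 and Non-exposed replicate 4 were the high arrays, and the conditions overlapped. The log2 fold change was 0.27 ± 0.16 (SE), with an exact permutation p of 0.20, and it was 0.16 without Aldrin-exposed replicate 3.

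At their chosen probe sets, SRSF5 and SRSF1 were on the lower side. The 11 probe sets of SRSF5 were split, with 5 higher and 6 lower, at -0.35 to 0.09. Of the 6 probe sets of SRSF1, 1 was higher and 5 were lower, at -0.16 to 0.01. SRSF1, the founding member of the family, had log2 values of 12.74, 12.57, 12.49 and 12.54 in Aldrin-exposed cells, against 12.81, 12.85, 12.75 and 12.55 in Non-exposed cells. The lowest Non-exposed array fell among the Aldrin-exposed ones, and the log2 fold change was -0.16 ± 0.09 (SE, exact permutation p = 0.11). SRSF5, a shuttling SR protein, had values of 12.30, 12.06, 12.06 and 11.97 in Aldrin-exposed cells, against 12.27, 12.21, 12.41 and 12.14 in Non-exposed cells. Here the highest Aldrin-exposed array lay inside the Non-exposed range (log2 fold change -0.16 ± 0.10, SE, exact permutation p = 0.17). SRSF12 had the lowest fold change of the family at -0.19, with an interval from -0.49 to 0.12, while its second probe set changed by 0.14.

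The hnRNP genes were split into 9 with a higher and 13 with a lower mean, and their median log2 fold change was -0.04. HNRNPA1, HNRNPA2B1 and HNRNPC are core proteins packaged with nascent transcripts. Their chosen probe sets changed by -0.04, 0.01 and 0.01 on the log2 scale, with intervals that reached about 0.20 at most on either side of 0. Their other probe sets differed more. Over all single-gene probe sets the changes ran from -0.09 to 0.21 for HNRNPA1, -0.26 to 0.01 for HNRNPA2B1 and -0.45 to 0.09 for HNRNPC. HNRNPA1L2, a gene closely similar to HNRNPA1, had the lowest fold change. Its values were 10.53, 10.06, 10.47 and 10.65 in Aldrin-exposed cells, against 10.79, 10.54, 10.76 and 10.64 in Non-exposed cells. Replicate 2 was the lowest array of each condition, and the conditions overlapped. The log2 fold change was -0.25 ± 0.13 (SE, exact permutation p = 0.086), and -0.13 without Aldrin-exposed replicate 2. The probes of HNRNPA1L2 and of HNRNPCL2, a gene closely similar to HNRNPC, may take up transcripts of their relatives, so their values are uncertain. HNRNPCL2 had a log2 fold change of -0.12 with an interval from -0.31 to 0.07. HNRNPLL, a regulator of alternative splicing known from lymphocytes, stood at 0.11 with an interval from -0.11 to 0.33.

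Member genes of branch point and 3′ splice site recognition changed little at their chosen probe sets. With 5 higher and 7 lower means, their log2 fold changes ran from -0.09 for SF3B2 to 0.13 for SF3B5. All 4 probe sets of U2AF1L4 were lower, at -0.28 to -0.04. U2AF1 is not a member, since its probe sets also name another gene. They changed by -0.19 ± 0.19 and -0.19 ± 0.15 (SE). SF3B1, the largest protein of the SF3B complex and a frequent target of mutation in cancer, had values of 11.89, 11.90, 11.99 and 11.74 in Aldrin-exposed cells, against 11.92, 12.00, 11.85 and 11.92 in Non-exposed cells. The ranges overlapped widely, and the log2 fold change was -0.04 ± 0.08 (SE), with an interval from -0.22 to 0.13. U2AF2, the large U2AF subunit that binds the polypyrimidine tract, had values of 11.58, 11.96, 11.93 and 11.77 in Aldrin-exposed cells, against 11.72, 11.82, 11.44 and 11.76 in Non-exposed cells. Its log2 fold change was 0.12 ± 0.12 (SE, exact permutation p = 0.37), and the direction turned with array weights and with the mean of its 4 probe sets. SF3B2 had values of 12.37, 12.12, 12.38 and 12.41 in Aldrin-exposed cells, against 12.38, 12.48, 12.37 and 12.42 in Non-exposed cells. Apart from Aldrin-exposed replicate 2, its arrays differed little.

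Most promoter windows of this family, though not all, held a sequence feature that had no part in choosing the genes. RefSeq promoter windows of GRCh38.p14, with 250 bases before and 50 bases after the start of the gene, were found for 96 of the 107 members. In 7 of the 11 windows of the branch point and 3′ splice site family stood the letters CCGGAAGT or their complement, a site for ETS factors. The 30 bases around each match are shown, 5′ to 3′ on the strand of the gene, with the match in capitals. They lie at chr22:30356925-30356954 (SF3A1), chr19:2236804-2236833 (SF3A2), chr1:37990073-37990102 (SF3A3), chr11:66052300-66052329 (SF3B2), chr1:149927811-149927840 (SF3B4), chr2:24076467-24076496 (SF3B6), chr19:55654994-55655023 (U2AF2).
SF3A1: aggggacggtcCCGGAAGTgcgccagtcgt
SF3A2: tctcatttgccCCGGAAGTgctttctttgc
SF3A3: agtcccggggcACTTCCGGcactcgcggaa
SF3B2: atacggcgccaCCGGAAGTtccggcaagtg
SF3B4: ccgtcttcgccCCGGAAGTggaagtcgtgc
SF3B6: cggtacagagcCCGGAAGTgtcttggactc
U2AF2: gccggcggcggCCGGAAGTagccgaagcca
All 7 matches lay before the start of the gene, at 9 (SF3A2) to 159 bases (SF3B6), and in 6 of them the letters read CCGGAAGT on the strand of the gene. Over all members 19 of 96 windows held the site (19.8%), against 4.44% of all 27305 windows and 6.19% of the 15843 windows of protein-coding genes. In the other families it stood in 3 of 10 Sm and other snRNP, 2 of 11 SR, 5 of 34 RBM, 1 of 9 PRPF and 1 of 21 hnRNP windows. The family shown is thus the one with the largest share. The match is a description of these windows, and no binding was measured here. The 7 genes had log2 fold changes between -0.09 and 0.12.

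Other motifs were counted in the same windows, on both strands and each on its own, so overlaps between motifs were allowed. The CCAAT box (CCAAT) was found in 50.0% of the members' windows, in 36.4% of the windows of protein-coding genes and in 35.7% of all windows. It occurred 2 or more times in 22.9%, 12.5% and 11.3% of these windows. By family, 14 of 21 hnRNP, 6 of 9 PRPF and 20 of 34 RBM windows held it. So did 4 of 10 Sm and other snRNP windows, 2 of 11 SR windows and 2 of 11 branch point and 3′ splice site windows. The GC box (GGGCGG) was in 60.4% of the members' windows, against 58.5% for protein-coding genes and 44.6% for all windows. In the same order, the TATA letters (TATAAA) were in 8.33%, 9.63% and 12.0%, the E-box (CACGTG) in 10.4%, 8.88% and 7.43% and the cyclic AMP response element (TGACGTCA) in 3.12%, 2.59% and 1.98%. For the GC box, the TATA letters, the E-box and the cyclic AMP response element the members' share was thus nearer to that of protein-coding genes than to that of all windows. The median GC content was 62.2% for the members, 62.7% for protein-coding genes and 58.3% for all windows.

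The Sm and other snRNP genes had 5 higher and 7 lower means, with a median log2 fold change of -0.01. SNRPG, a protein of the Sm ring, had values of 13.18, 12.56, 12.85 and 13.10 in Aldrin-exposed cells, against 13.08, 13.27, 13.07 and 12.85 in Non-exposed cells. The conditions overlapped over most of their range (log2 fold change -0.15 ± 0.15, SE, exact permutation p = 0.46), and the change was -0.03 without Aldrin-exposed replicate 2, -0.08 without Non-exposed replicate 2 and -0.23 without Aldrin-exposed replicate 1. SNRPA1, the U2 protein A′, had a change of -0.13 with an interval from -0.43 to 0.16. Of its 3 probe sets, 2 were higher and 1 was lower, at -0.13 to 0.03. At their chosen probe sets the Sm proteins SNRPB, SNRPD2 and SNRPD3 all lay within 0.02 of 0. The interval of SNRPD3 ran from -0.41 to 0.38, and its second probe set changed by -0.20. The 9 probe sets of SNRPB changed by -0.15 to 0.09.

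The PRPF genes had the lowest median of the families at -0.10, with 3 higher and 8 lower means, and none of the 11 had an unadjusted limma p under 0.05. PRPF38B, whose paralog PRPF38A is a protein of the activating spliceosome, led on the lower side. It had values of 10.34, 10.44, 10.08 and 9.95 in Aldrin-exposed cells, against 10.46, 10.63, 10.34 and 10.34 in Non-exposed cells. Aldrin-exposed replicates 3 and 4 were well below the Non-exposed arrays, replicate 1 was level with the lowest of them and replicate 2 lay among them. The log2 fold change was -0.24 ± 0.12 (SE, exact permutation p = 0.11), and all 3 probe sets of the gene were lower, at -0.24 to -0.08. PRPF38A was at -0.20. PRPF3, a protein of the U4/U6 particle, was at -0.14 with an interval from -0.44 to 0.15, and at -0.06 without Aldrin-exposed replicate 3 and -0.24 without Non-exposed replicate 4. PRPF8, the scaffold at the centre of the spliceosome, changed by -0.05 with an interval from -0.25 to 0.16.

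RBM genes held the largest changes in both directions, with 17 higher and 21 lower means and a median of -0.04. RBM14-RBM4 is the readthrough gene on chromosome 11 that joins RBM14 to its neighbour RBM4. Its 1 single-gene probe set had values of 8.04, 8.15, 7.53 and 8.04 in Aldrin-exposed cells, against 8.54, 8.50, 8.35 and 8.26 in Non-exposed cells. Every Aldrin-exposed array was below every Non-exposed array, and Aldrin-exposed replicate 3 was the lowest. The log2 fold change was -0.47 ± 0.14 (SE), with an unadjusted limma p of 0.0075 and an adjusted p of 1.00. The exact permutation p was 0.0286, the smallest that 4 against 4 arrays can give. The change was -0.34 without Aldrin-exposed replicate 3.

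The readthrough transcript holds sequence of RBM14 and of RBM4, so its probe set may take up their transcripts and its value is uncertain. The probe sets of both neighbours are therefore given beside it. RBM14, a coactivator found in nuclear paraspeckles, had values of 11.62, 11.10, 11.47 and 11.39 in Aldrin-exposed cells, against 11.67, 11.89, 11.42 and 11.51 in Non-exposed cells. The conditions overlapped (log2 fold change -0.23 ± 0.14, SE, exact permutation p = 0.17), and all 3 probe sets of RBM14 were lower, at -0.27, -0.26 and -0.23. RBM4, a regulator of alternative splicing, had values of 10.40, 10.47, 10.65 and 10.26 in Aldrin-exposed cells, against 10.51, 10.75, 10.41 and 10.93 in Non-exposed cells. Its chosen probe set changed by -0.21 ± 0.13 (SE, exact permutation p = 0.17) and its second one by -0.04. Probe sets that name RBM4 and RBM14-RBM4 together changed by -0.06 ± 0.08 and 0.02 ± 0.08 (SE), and the one that names RBM14 and RBM14-RBM4 changed by -0.23 ± 0.35 (SE). RBM14 and RBM14-RBM4 have the same start in RefSeq, and so the same promoter window, chr11:66616380-66616679 on the plus strand. It is shown because the farthest member on the lower side and RBM14 share it, with the letters CCAAT or their complement in capitals.
RBM14 and RBM14-RBM4: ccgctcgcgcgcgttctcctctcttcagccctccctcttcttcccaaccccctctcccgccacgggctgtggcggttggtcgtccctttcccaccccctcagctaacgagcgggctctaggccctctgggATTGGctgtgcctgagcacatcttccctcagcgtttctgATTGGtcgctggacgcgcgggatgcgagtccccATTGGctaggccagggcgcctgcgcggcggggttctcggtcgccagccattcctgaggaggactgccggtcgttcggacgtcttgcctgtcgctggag
The window held 3 CCAAT matches, all as the complement ATTGG.

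RBM7, a subunit of the nuclear exosome targeting complex that guides noncoding transcripts to decay, led on the higher side. Its values were 9.00, 9.18, 9.33 and 8.73 in Aldrin-exposed cells, against 8.48, 8.82, 8.18 and 8.89 in Non-exposed cells. Only Aldrin-exposed replicate 4 fell among the Non-exposed arrays. The log2 fold change was 0.46 ± 0.18 (SE, unadjusted limma p = 0.029, adjusted p = 1.00, exact permutation p = 0.086), and it was 0.33 without Non-exposed replicate 3. RBM7 has 1 single-gene probe set, so no other one was there to compare. Its promoter window, chr11:114400416-114400715 on the plus strand, is shown for comparison with that of RBM14. It held neither CCAAT, CCGGAAGT nor TGACGTCA, so no letters are in capitals.
RBM7: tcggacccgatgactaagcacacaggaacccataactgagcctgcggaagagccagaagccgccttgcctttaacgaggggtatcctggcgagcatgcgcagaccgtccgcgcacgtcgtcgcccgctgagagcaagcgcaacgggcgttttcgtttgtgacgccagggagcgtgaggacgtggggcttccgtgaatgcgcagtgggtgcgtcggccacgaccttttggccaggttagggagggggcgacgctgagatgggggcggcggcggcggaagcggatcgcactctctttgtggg

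RBM24 and RBM43 had changes of nearly the same size as RBM7 with a much wider spread. RBM24, a splicing regulator known from muscle, had values of 9.46, 9.20, 10.23 and 9.66 in Aldrin-exposed cells, against 8.82, 9.62, 8.71 and 9.67 in Non-exposed cells. Non-exposed replicates 1 and 3 were low and Aldrin-exposed replicate 3 was high, with overlap between the others. The log2 fold change was 0.43 ± 0.28 (SE, exact permutation p = 0.26), and 0.23 without Aldrin-exposed replicate 3. RBM43 had values of 6.65, 7.21, 7.68 and 7.14 in Aldrin-exposed cells, against 6.42, 6.86, 6.32 and 7.36 in Non-exposed cells. The same arrays were high and low as for RBM24 (log2 fold change 0.43 ± 0.26, SE, exact permutation p = 0.20), and it was 0.26 without Aldrin-exposed replicate 3.

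The other RBM genes of smallest p differed less. RBM33 had values of 11.07, 10.78, 10.59 and 10.47 in Aldrin-exposed cells, against 10.89, 10.99, 11.19 and 10.88 in Non-exposed cells (log2 fold change -0.26 ± 0.14, SE, exact permutation p = 0.14). All but Aldrin-exposed replicate 1 were below the Non-exposed range. RBM6, a splicing regulator next to RBM5 on chromosome 3, had values of 9.47, 9.48, 9.26 and 9.42 in Aldrin-exposed cells, against 9.71, 9.48, 9.63 and 9.46 in Non-exposed cells (log2 fold change -0.16 ± 0.09, SE, exact permutation p = 0.11). Its conditions met at the top of the Aldrin-exposed range. RBM28, a nucleolar protein, changed by -0.18 with an interval from -0.44 to 0.09. Its second single-gene probe set changed by -0.37, and the probe set that lists RBM28 again by 0.05 ± 0.25 (SE). On the higher side RBM18 changed by 0.18, RBM11 and RBM45 by 0.15 each and RBM34 by 0.11, and every one of these intervals held 0.

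**Figure D2:**
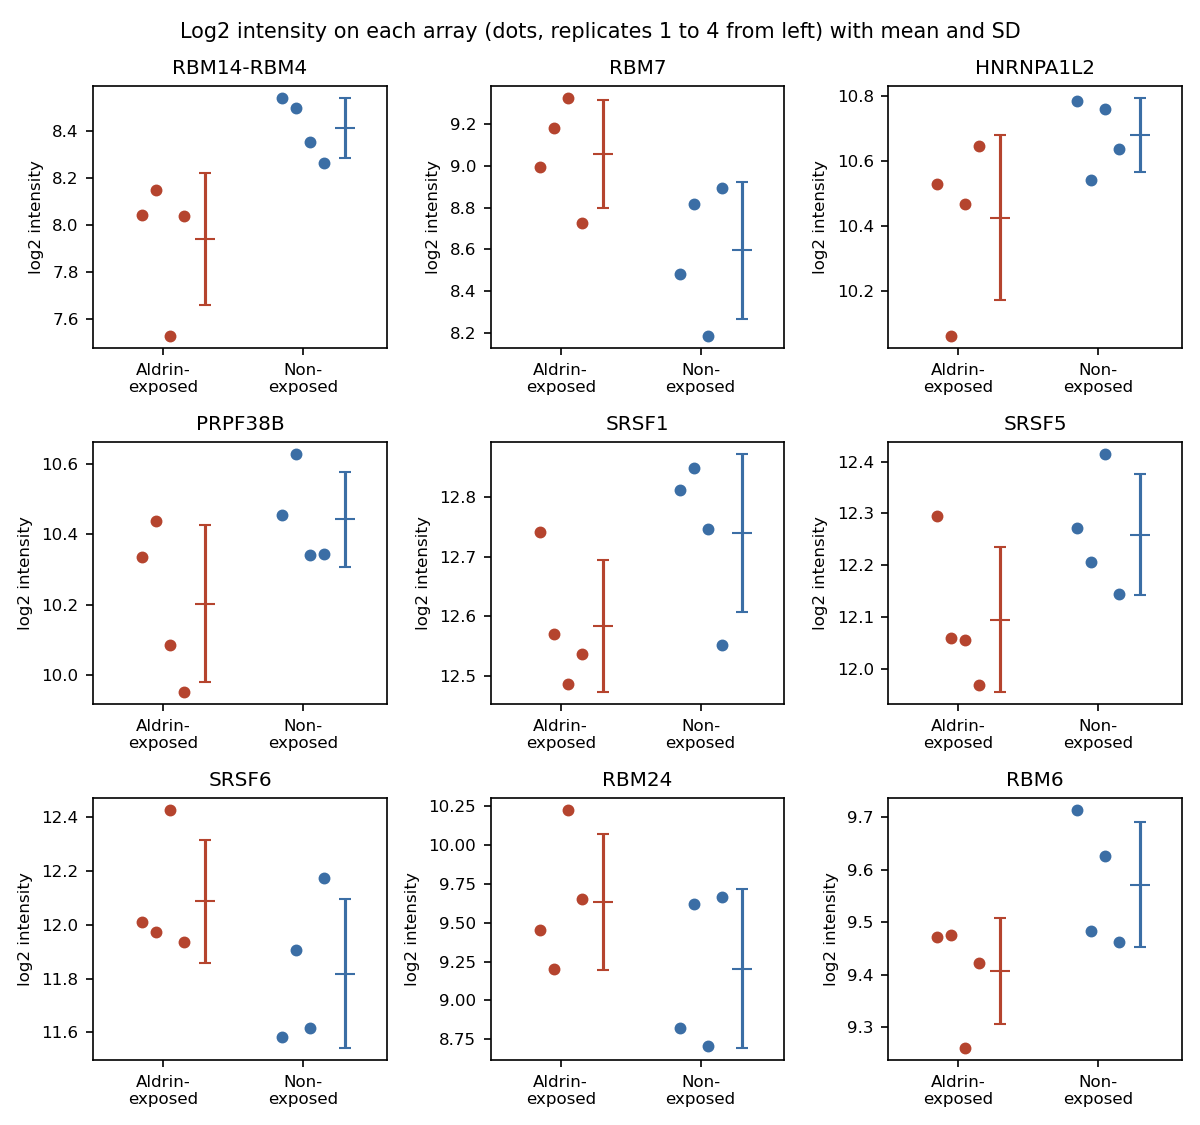
Log2 intensity of 9 splicing factor genes on each array, Aldrin-exposed on the left and Non-exposed on the right of each panel; dots are replicates 1 to 4, and the bars show mean and SD (n = 4 each). RBM14-RBM4 is the panel in which the conditions do not overlap; in the others at least 1 array lies within the range of the other condition.

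Several probe sets of a gene often read different ends or isoforms of its transcripts, so they were compared next. Of the 107 members, 82 had 2 or more single-gene probe sets and SRSF5 had the most, at 11. Over the 349 probe sets, 137 had a higher and 212 a lower mean in Aldrin-exposed cells, where 48.2% of all probe sets were higher. At an unadjusted limma p under 0.05 there were 9, of which 2 were higher and 7 lower, against 3.07% of all probe sets (1.22% higher and 1.85% lower), and 0 passed the adjusted threshold. There were 3 probe sets without overlap between conditions, all lower. Over all probe sets 1.99% had no overlap, 0.643% being higher and 1.35% lower.

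The first of these 3 was that of RBM14-RBM4, and the others belonged to HNRNPD and HNRNPL. HNRNPD, also called AUF1, binds AU-rich elements of short-lived messenger RNAs. Its probe set read 12.07, 11.71, 11.97 and 12.05 in Aldrin-exposed cells, against 12.17, 12.15, 12.19 and 12.09 in Non-exposed cells (log2 fold change -0.20 ± 0.09, SE). All 8 probe sets of HNRNPD were lower, down to -0.27, although the one that stands for the gene changed by -0.03. HNRNPL, which binds CA repeats, had a probe set with 12.59, 12.36, 12.61 and 12.60 in Aldrin-exposed cells, against 12.65, 12.67, 12.65 and 12.66 in Non-exposed cells. The gap between the conditions was small and Aldrin-exposed replicate 2 stood apart (log2 fold change -0.12 ± 0.08, SE), while the second HNRNPL probe set changed by 0.04.

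For 61 members with 3 or more probe sets, the direction could be compared within the gene. All probe sets were lower for 15 of them (24.6%, against 18.5% of 6995 such genes) and all were higher for 6 (9.84%, against 19.3%). Probe sets of a gene share its transcripts and often overlap, so they are not independent. HNRNPU, a scaffold protein of nuclear chromatin, was lower in all 10, with changes from -0.36 to -0.03. RBM5, a regulator of apoptosis gene splicing, was lower in all 6, from -0.20 to -0.08. RBM24 was higher in all 5, from 0.23 to 0.43.

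Whether the probe sets of a gene changed by different amounts was tested with the F test of limma's diffSplice, for 11734 genes and 82 members. It called 0 members and 0 genes at an adjusted p of 0.05. At an unadjusted p under 0.05 there was 1 member (1.22%), SF1, against 0.946% of all genes tested. SF1 binds the branch point before the U2 particle does. Its most deviant probe set read 9.23, 9.63, 9.29 and 9.26 in Aldrin-exposed cells, against 9.59, 9.61, 9.68 and 9.91 in Non-exposed cells, a log2 fold change of -0.35 ± 0.11 (SE). Aldrin-exposed replicates 1, 3 and 4 were low and replicate 2 was not. The other 5 probe sets of SF1 changed by -0.04 to 0.17 (diffSplice unadjusted p = 0.046, adjusted p = 1.00).

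RBM8A and RBM3 came next in this test. RBM8A, the Y14 protein of the exon junction complex, had 1 probe set with 9.05, 9.27, 8.59 and 9.15 in Aldrin-exposed cells, against 9.82, 9.19, 9.57 and 9.17 in Non-exposed cells, where Non-exposed replicates 1 and 3 were high. That probe set changed by -0.42 and the other 4 by -0.04 to 0.12 (diffSplice unadjusted p = 0.060, adjusted p = 1.00). RBM3, a protein induced by cold, had a probe set with 6.44, 6.59, 5.86 and 6.65 in Aldrin-exposed cells, against 7.15, 6.61, 7.14 and 6.33 in Non-exposed cells. The same Non-exposed replicates 1 and 3 were high there. It changed by -0.42, and the probe set that stands for RBM3 by 0.03 (diffSplice unadjusted p = 0.097, adjusted p = 1.00).

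**Figure D3:**
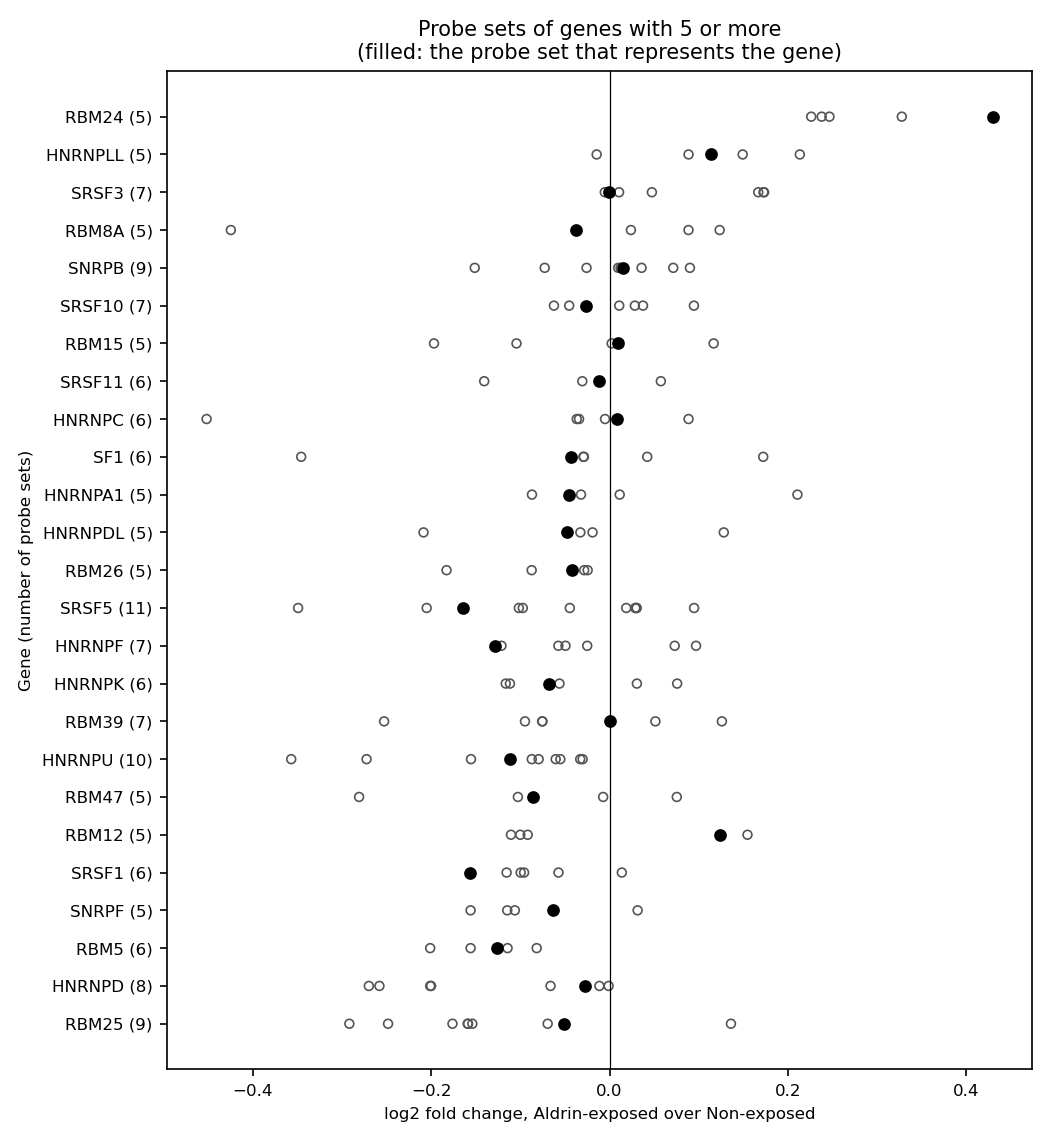
Log2 fold change, Aldrin-exposed over Non-exposed, of each single-gene probe set of the 25 members with 5 or more of them; filled dots are the probe sets that stand for the gene, and open dots the others. All 10 HNRNPU and all 8 HNRNPD dots lie below 0 and all 5 RBM24 dots above it, while SF1, RBM8A and HNRNPC have 1 dot far to the left of the others.

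An axis that crossed the conditions held most of the members' variance between arrays. The first principal component of the 107 genes over the 8 arrays held 59.7% of their variance, against 53.4% for all genes. Aldrin-exposed arrays 1 to 4 scored 0.48, 1.11, -2.88 and -0.30 on it, and Non-exposed arrays 1 to 4 scored 1.99, -0.41, 1.92 and -1.92. The axis thus ran from Aldrin-exposed replicate 3 and Non-exposed replicate 4 at its low end to Non-exposed replicates 1 and 3 at its high end, and crossed the conditions. The scores from all genes gave the same order of arrays except that Non-exposed 1 and 3 changed places.

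At the low end of the axis PRPF39, a protein linked to the U1 particle, was high. It had the widest range of all members, with values of 8.87, 7.84, 10.03 and 9.69 in Aldrin-exposed cells, against 8.24, 9.61, 8.19 and 10.11 in Non-exposed cells. Each condition spanned most of the whole range, and the log2 fold change was 0.07 ± 0.56 (SE, exact permutation p = 0.91). RBM24, RBM43, SRSF6 and RBM7 followed on this side. RBM42, which is part of the U4/U6.U5 particle, ran the other way, with values of 11.80, 12.21, 10.83 and 11.93 in Aldrin-exposed cells, against 12.36, 11.52, 12.34 and 11.22 in Non-exposed cells. Aldrin-exposed replicate 3 and Non-exposed replicate 4 were its lowest arrays (log2 fold change -0.17 ± 0.34, SE, exact permutation p = 0.71). PRPF6, a bridge between the particles of the tri-snRNP, followed the same course, with 10.92, 11.00, 9.95 and 10.83 in Aldrin-exposed cells, against 11.20, 10.67, 11.10 and 10.21 in Non-exposed cells. SNRPD1, PRPF38A and HNRNPH3 were low on the same 2 arrays.

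RBM42 was the member with the widest range of those with a promoter window, which lies at chr19:35628786-35629085 on the plus strand. It is shown with CCAAT or its complement and the cyclic AMP response element in capitals.
RBM42: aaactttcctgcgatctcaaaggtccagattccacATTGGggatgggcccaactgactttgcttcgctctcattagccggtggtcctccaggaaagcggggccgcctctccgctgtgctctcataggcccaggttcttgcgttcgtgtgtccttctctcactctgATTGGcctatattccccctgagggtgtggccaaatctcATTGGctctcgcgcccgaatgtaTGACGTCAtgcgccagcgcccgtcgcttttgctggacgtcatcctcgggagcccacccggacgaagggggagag
The window held 3 CCAAT matches and 1 TGACGTCA.

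Wide ranges were not particular to these genes. Of the members, 9 (8.41%) ranged over more than 1 on the log2 scale, or 2-fold, across the 8 arrays, against 6.73% of all genes, and the median range was 0.464 for the members and 0.463 for all genes. Aldrin-exposed replicate 3 was the lowest array for 33 members (30.8%), and for 25.1% of all genes. Non-exposed replicate 1 was the highest for 23 members (21.5%), and for 13.9% of all genes. Non-exposed replicate 3 was the lowest for 23 members (21.5%) and for 12.4% of all genes, and the highest for 10 members (9.35%) and for 21.3% of all genes. These shares were not tested.

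Control probe sets differed between the same arrays. The 3′ minus 5′ difference of GAPDH, which grows with the loss of 5′ sequence in the labelled RNA, was 0.56, 0.62, 0.65 and 0.41 on the Aldrin-exposed arrays and 0.40, 0.59, 0.39 and 0.59 on the Non-exposed arrays. Background probes with 20 to 25 G or C bases exceeded those with 3 to 10 by 6.13, 5.59, 5.65 and 6.14 on the Aldrin-exposed arrays and by 6.17, 5.76, 6.37 and 5.90 on the Non-exposed arrays (log2). Aldrin-exposed replicate 3 and Non-exposed replicate 4, the low end of the axis, were on the side of large GAPDH differences and low values of the GC contrast, and so were Aldrin-exposed replicate 2 and Non-exposed replicate 2. The 3′ minus 5′ difference of ACTB was 0.22, 0.45, 0.24 and 0.20 on the Aldrin-exposed arrays and 0.28, 0.16, 0.17 and 0.23 on the Non-exposed arrays. There Aldrin-exposed replicate 3 and Non-exposed replicate 4 lay below Non-exposed replicate 1, at the other end of the axis. A link of these controls with the axis was not tested. The hybridisation control BioB was 11.16 on Aldrin-exposed replicate 2 and between 9.80 and 10.35 on the other 7 arrays. The adjusted count stayed at 0 members with the GC contrast or with the GAPDH difference as a covariate. Without Aldrin-exposed replicate 3 and Non-exposed replicate 4 it was 0 as well.

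**Figure D4:**
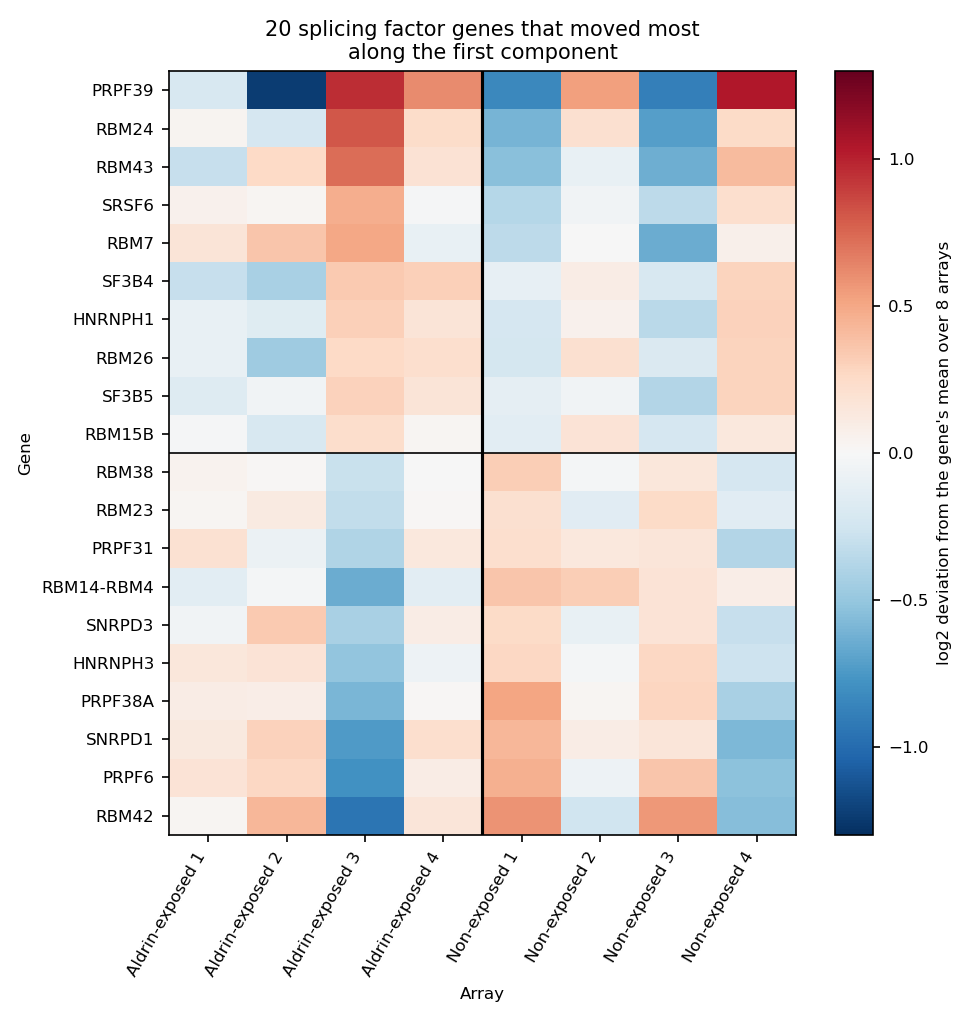
Log2 deviation of 20 members from their own mean over the 8 arrays, Aldrin-exposed columns left of the line and Non-exposed right of it; the upper 10 genes are those at the low end of the first component's loadings and the lower 10 those at the high end. Aldrin-exposed 3 and Non-exposed 4 are red above and mostly blue below, and Non-exposed 1 and Non-exposed 3 mostly the reverse.

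Splicing genes outside the member families were read from 5 lists of 145 measured genes. Of these, 0 were higher and 2 lower at an unadjusted limma p under 0.05, 0 passed the adjusted threshold, and 55 had a higher and 90 a lower mean in Aldrin-exposed cells. Over all genes, 1.17% were higher and 1.59% lower at that unadjusted p, and 45.8% had a higher mean. Other core spliceosome proteins had 25 higher and 30 lower means, with the helicase DDX39B at -0.20 and the U6 recycling factor SART3 at -0.16. The minor spliceosome had 3 higher and 6 lower means, with ZRSR2, which recognises the 3′ splice site of minor introns, at -0.17 and ZCRB1 at 0.10. Proteins of the exon junction complex and of mRNA export had 7 higher and 11 lower means, with SRRT at -0.10 and the decay helicase UPF1 at -0.16. None of these 3 lists held a gene at an unadjusted limma p under 0.05.

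The 2 lower genes came from the other lists. SR-like proteins and SR protein kinases had 6 higher and 19 lower means. In that list RSRC2, a protein with an arginine and serine rich domain, had values of 11.64, 11.35, 11.58 and 11.70 in Aldrin-exposed cells, against 11.94, 11.94, 11.87 and 11.76 in Non-exposed cells. The conditions did not overlap, as in 1.22% of all genes on the lower side (log2 fold change -0.31 ± 0.10, SE, unadjusted p from limma = 0.0094, exact permutation p = 0.0286, adjusted p = 1.00), and ACIN1 followed at -0.19. Alternative splicing regulators outside the member families had 14 higher and 24 lower means. ESRP1, which directs epithelial splicing patterns, had values of 4.95, 5.10, 5.03 and 5.06 in Aldrin-exposed cells, against 5.37, 5.68, 5.25 and 5.30 in Non-exposed cells. This probe set was left out by the filter on dim probe sets, so its values have no check under that filter. The conditions did not overlap (log2 fold change -0.37 ± 0.10, SE, unadjusted p from limma = 0.0057, exact permutation p = 0.0286, adjusted p = 1.00). MBNL2, a regulator of developmental splicing, stood at 0.48 ± 0.32 (SE), with 9.99, 10.02, 10.82 and 10.45 in Aldrin-exposed cells, against 9.15, 9.72, 9.74 and 10.76 in Non-exposed cells, the highest Non-exposed array being replicate 4. It was 0.25 without Non-exposed replicate 1, 0.31 without Aldrin-exposed replicate 3 and 0.78 without Non-exposed replicate 4.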

How the data were processed

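Total RNA of DU145 cells, 4 Aldrin-exposed and 4 Non-exposed samples, had been hybridised to Affymetrix arrays. The authors deposited a log2 intensity for each probe set, made with RMA (background correction, quantile normalisation and probe summary). Any shift of a whole array is therefore lost from these values. Of 49395 probe sets, 102 controls were left out. Genes were assigned to probe sets from the platform annotation (44988 with 1 gene, 1832 with several, 2473 with none), and each gene was represented by its brightest single-gene probe set, by the mean of all 8 arrays. Of the 107 chosen probe sets, 43 are of the types that may take up related transcripts. No array column was left unused. The array name in the published methods differs from the annotation used here, which matched by probe identifier.

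Conditions were compared in R 4.3.3 by moderated linear models (limma 3.58.1, two-sided, 4 against 4 arrays), with Benjamini-Hochberg adjustment over 49293 probe sets and a threshold of 0.05. Single values were also tested by a two-sided exact permutation test, and probe sets of a gene by the F test of diffSplice. Intervals are 95%. The steps were tested on simulated data, drawn as independent normal values for each probe set and array. Those data hold no axis shared between probe sets, so they do not show how the tests behave with the axis described above. Promoter windows are from RefSeq. The text names, in each direction, the 10 members of smallest p, in each family the 2 of smallest p, the 3 of smallest diffSplice p, and from each list of other splicing genes the 2 of smallest p. Further members were named after their values were seen. The members and lists were chosen with earlier results of these data known. Alternatives were an intensity trend, array weights, a replicate block, unequal variances, median centring, a second quantile normalisation, a filter on dim probe sets, the mean of a gene's probe sets, updated symbols, and each array left out. Covariates for the control probe sets and the omission of 2 arrays were added after the data were seen.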

Additional observations from a re-analysis of the deposited data

Results flagged for a closer look

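Among the named genes, 4 of 76 sets of 4 arrays held an array far from the other 3 of its condition by Dixon's test, and chance alone marks about 1 in 20. SRSF6 was at 12.43 on Aldrin-exposed replicate 3, with the other Aldrin-exposed arrays between 11.94 and 12.01. HNRNPCL2 was at 6.05 on the same array, with the others between 6.28 and 6.31. SF3B2 was at 12.12 on Aldrin-exposed replicate 2, with the others between 12.37 and 12.41. RBM18 was at 10.63 on Non-exposed replicate 3, with the others between 10.92 and 10.94.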

How the results depend on the processing

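No member passed the adjusted threshold under any of 20 alternatives, of which 9 changed the method, 8 left out 1 array each and 3 were added after seeing the data. Among the 9, the test with unequal variances is not a limma fit. The updated symbols changed 0 probe sets, so that run repeated the main one and was no check. No member's probe sets differed by diffSplice at that threshold where it was run. The count of 2 members at an unadjusted p under 0.05 became 5 with array weights, 1 with unequal variances, 6 with the mean of a gene's probe sets, 4 without Aldrin-exposed replicate 3 and Non-exposed replicate 4, 4 with the GC contrast and 5 with the GAPDH difference as a covariate. It was 5 without Aldrin-exposed replicate 1, 5 without Aldrin-exposed replicate 2, 1 without Aldrin-exposed replicate 3, Non-exposed replicate 1 or Non-exposed replicate 3, and 6 without Non-exposed replicate 4. The count of 1 member without overlap became 3 with the mean of probe sets and 5 without the 2 end arrays. It was 3 without Aldrin-exposed replicate 1, 4 without Aldrin-exposed replicate 2, and 5 without Aldrin-exposed replicate 4 or without Non-exposed replicate 4, where fewer arrays have to be separated. The matching shares of all genes were not counted under these alternatives. The members' counts at an unadjusted p and without overlap therefore have no background beside them here, and nothing about the members is read from them. Members with a higher mean numbered 31 to 48 and the median log2 fold change was -0.0387 to -0.0152 when 1 array was left out. The replicate numbers alone do not say whether the arrays were paired. Deviations of same-numbered arrays from their condition means correlated at 0.31, -0.34, -0.72 and -0.08 over all probe sets. The axis described above enters these values too, so they cannot settle the pairing. With the replicate block the counts were 0 called and 2 at an unadjusted p under 0.05, with 42 higher means and a median of -0.034. Of 758 values of named genes, 10 changed sign and 0 passed the adjusted threshold. Among 38 named genes, 27 had a log2 fold change that moved by over 1.5 times or changed sign when 1 array was left out, and RBM34 and ESRP1 had no value with the filter on dim probe sets. U2AF2 turned to -0.0186 with array weights and -0.00582 with the mean of probe sets. SF1 turned to 0.0397 with array weights, 0.0361 with the GC contrast and 0.0355 with the GAPDH difference, and lay between -0.12 and 0.0174 when 1 array was left out. RBM8A lay between -0.0806 and 0.0129 in the same way, and RBM3 between -0.00336 and 0.0771, with -0.195 for the mean of its probe sets. The cause was not tested. Signal over background was not read, since RMA values hold no background measure, and 101 members passed the filter on dim probe sets.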
